A study of Xenopus laevis with 51 samples.

Results

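The visual cycle is the set of reactions that returns vitamin A aldehyde to the visual pigments after light has bleached them. Photoreceptors reduce the spent all-trans retinal to retinol, and the pigment epithelium behind the retina esterifies it, turns the ester into the 11-cis form and oxidises that back to retinal. The same epithelium makes melanin in pigmented animals. A total of 26 entries of 24381 in the gene tables carried 1 of 10 symbols of this machinery and were chosen by symbol alone. The symbols were RPE65 (2 entries), LRAT (3), RLBP1 (2), RBP3 (1), RDH5 (3), RDH8 (5), RDH10 (3), RGR (2), TYR (3) and PMEL (2). Xenopus laevis is an allotetraploid frog in which many genes are kept as an L and an S copy, so entries were kept apart and numbered within a symbol by falling mean level over the eyes, RPE65-1 being the higher of the pair. The row names do not say which entry is L and which is S. LRAT, RDH5, RDH8, RDH10 and TYR have more than 2 entries, so these are not all L and S copies of 1 gene. What the further entries are was not determined.

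The study sequenced RNA from whole eyes and from hindbrains. ONC eyes were right eyes of frogs whose right optic nerve had been crushed in the orbit 3 days, 11 days or 3 weeks earlier, contralateral eyes were the left eyes of such frogs at the same times, and naive eyes came from frogs without surgery. Each of these 7 groups had 3 libraries of 6 pooled eyes, which gives 21 eye libraries of 51 in all, and 3 libraries of 5 pooled hindbrains from unoperated frogs served as a second tissue. All of these animals were juvenile frogs of an albino strain, 1 to 3 months past metamorphosis, and their sex was not determined. The labels name separate pools but not which frogs gave which pool, and the contralateral eyes are not independent animals where they came from the same frogs as the ONC eyes. Whole eyes hold lens, cornea, muscle and blood besides retina and pigment epithelium, so fewer cells of a type and less RNA per cell cannot be told apart in these pools.

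Levels are FPKM, fragments scaled to the length of the gene model and to the mapped fragments of the library, as the authors deposited them. The files used here give no read counts, so no counting interval stands beside a level. Eye libraries summed to 616382 to 1209699 FPKM, lens markers took 25.3 to 46.6% of that sum, and the 26 entries took 0.651 to 1.36%. ONC replicate 2 of 11 days stood apart, with the highest FPKM sum and the lowest share of the 26 entries. A total of 8 eye libraries carry a letter B in their names that the labels do not explain. They are ONC replicates 1 and 3 of 3 days, contralateral replicate 3 of 3 days, ONC replicates 1 and 3 of 11 days and all 3 contralateral libraries of 11 days. No library of 3 weeks and no naive library carries it. All 3 libraries of unoperated frog hindbrain carry a letter R, which the labels do not explain either. No eye library carries R, so tissue and this letter cannot be told apart between naive eye and hindbrain.

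Most of the entries were abundant eye transcripts that were scarce in hindbrain. RBP3, which encodes the retinoid-binding protein of the space between photoreceptors and pigment epithelium, was the highest in naive eyes at 1680, 1658 and 1760 FPKM, against 0.178, 1.21 and 0.0515 FPKM in hindbrain. RPE65-1, one of the entries for the isomerase that makes the 11-cis form, had 1277, 1221 and 1205 FPKM in naive eyes, against 4.51, 4.28 and 4.74 FPKM in hindbrain. These libraries did not overlap, and the log2 fold change was 10.94 ± 0.36 (SE, limma, n = 3 each, adjusted p = 4.2e-08) for RBP3 and 7.95 ± 0.06 (adjusted p = 2.1e-10) for RPE65-1. In all, 23 of the 25 entries that could be tested were higher in naive eye and 1 was lower, with a median log2 fold change of 6.98, where 77.3% of all 22025 tested entries were called in either direction and their median was 0.08.

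The exceptions were minor entries of symbols that had a dominant entry elsewhere. RPE65-2 went the other way from RPE65-1. It had 0.596, 0.616 and 0.708 FPKM in naive eyes, against 1.96, 2.73 and 2.23 FPKM in hindbrain, with a log2 fold change of -1.29 ± 0.15 (adjusted p = 6.4e-05). The 2 RPE65 entries had naive eye means of 1234 ± 37.8 and 0.640 ± 0.060 FPKM (SD, n = 3), and RPE65-2 stayed between 0.323 and 1.94 FPKM over all 21 eye libraries. LRAT-3 overlapped between the tissues, at 0.950, 0.722 and 1.90 FPKM in naive eye and 0.683, 0.362 and 1.04 FPKM in hindbrain, and TYR-3 was below 0.45 FPKM in both and was not tested. LRAT-2, TYR-2 and TYR-3 were listed at 0 in all 3 hindbrain libraries, so the fitted fold changes of the first and second of these, which enter the median, depend on the pseudocount.

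**Figure D1:**
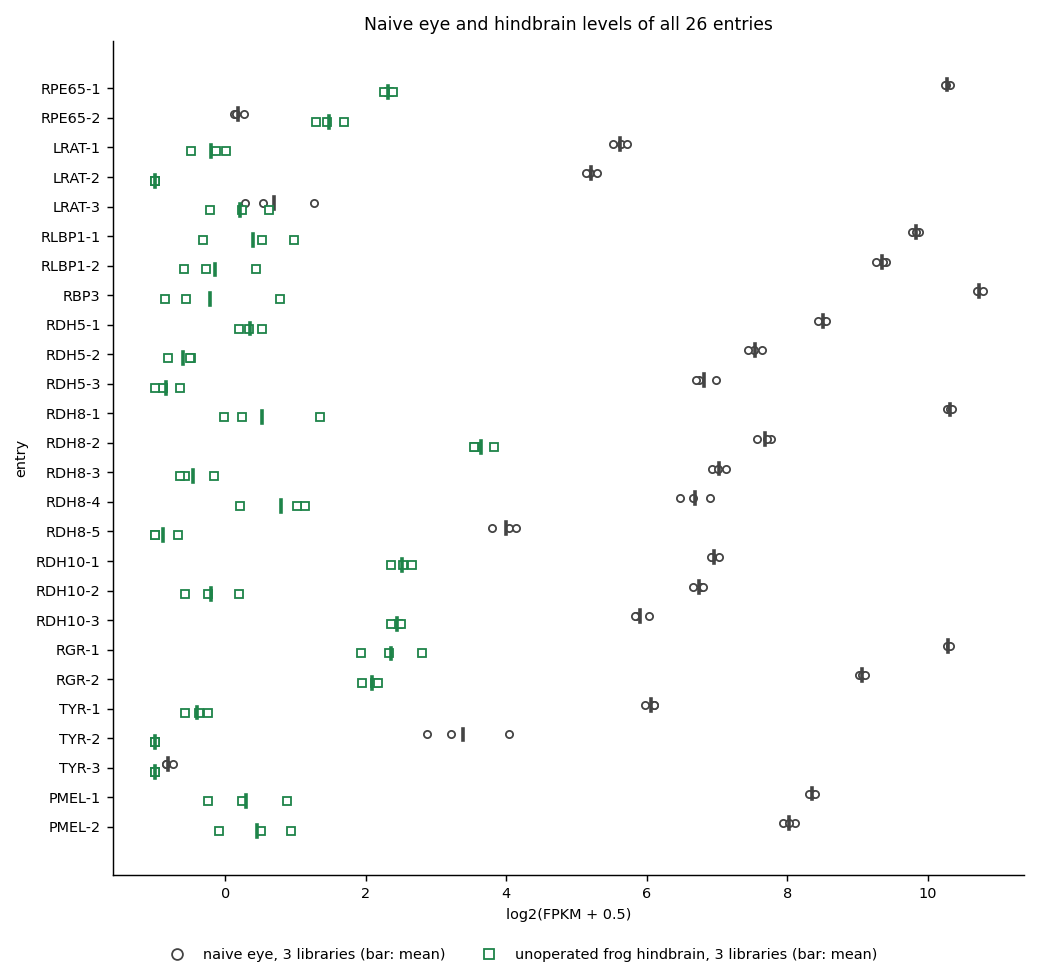
Level of each of the 26 entries as log2(FPKM + 0.5) in the 3 naive eye libraries (circles) and the 3 unoperated frog hindbrain libraries (squares), with the mean of each as a bar. For 24 entries all circles lie right of all squares, for RPE65-2 all squares lie right, and LRAT-3 overlaps.

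Levels differed widely among the entries of a symbol. RDH8, a photoreceptor retinol dehydrogenase that reduces all-trans retinal, had 5 entries that ran from 1265 ± 31.8 FPKM for RDH8-1 through 205 ± 14.3, 130 ± 9.59 and 103 ± 15.3 FPKM to 15.5 ± 1.91 FPKM for RDH8-5 in naive eyes (SD, n = 3). The neighbours RDH8-3 and RDH8-4 in that order overlapped between libraries. RLBP1, which encodes the carrier of 11-cis retinoids in pigment epithelium and Müller glia, had 2 entries of like level at 906 ± 27.9 and 649 ± 34.6 FPKM. RGR, an opsin of pigment epithelium and Müller glia that binds all-trans retinal, had 1252 ± 21.8 and 534 ± 16.5 FPKM. RDH5, the pigment epithelium dehydrogenase that oxidises 11-cis retinol, had 363 ± 14.7, 185 ± 13.2 and 112 ± 12.2 FPKM, and RDH10, which oxidises retinol to retinal in many tissues, had 123 ± 5.32, 107 ± 5.81 and 59.4 ± 4.63 FPKM. LRAT, which makes the retinyl esters that RPE65 uses, was far lower, with LRAT-1 at 48.9 ± 3.35 and LRAT-2 at 36.3 ± 2.18 FPKM.

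Melanin genes were expressed although the frogs were albino. PMEL, the protein that forms the fibrils of the melanosome, had 326 ± 8.48 and 260 ± 15.8 FPKM for its 2 entries in naive eyes, and TYR-1, an entry of tyrosinase, the enzyme that starts melanin synthesis, had 66.2 ± 3.38 FPKM (SD, n = 3). TYR-1 stayed between 50.5 and 81.7 FPKM over all 21 eye libraries, and no test of it between eye groups passed.

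Position in the genome put some of the entries on the same scaffold. The row names give positions on scaffolds of the JGIv7b assembly, which is not the build the reads were aligned to, and only the outer span of each gene model, with no exons. RPE65-1 lay at 176353 to 188359 on the plus strand of scaffold 000155039 and RPE65-2 at 681677 to 704290 on the minus strand of scaffold 000275988. LRAT-1 and LRAT-3 lay on opposite strands of scaffold 000061741, 12973 bases apart, and LRAT-2 on scaffold 000099286 at 446614 to 459327. TYR-2 and TYR-3 lay 16694 bases apart on the same strand of scaffold 000011169 and may be pieces of 1 locus, so their values are uncertain. An RDH5 and a PMEL entry shared a scaffold in 2 cases, with wide gaps. RDH5-1 and PMEL-1 lay 980387 bases apart on scaffold 000014978, and RDH5-2 and PMEL-2 lay 772128 bases apart on scaffold 000008129. RDH5-3 lay on scaffold 000043242, which held no PMEL entry. Per the paper, most reads that could fit both copies of a gene went to the copy with the better alignment score. Only a small rest was assigned at random, and its part in the values of split entries was not measured here.

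The first question of the design is whether the crushed side differs from the other side of the same animals. None of the entries tested, 26 at 3 days and 25 at each later time, was called between ONC and contralateral eyes (limma, adjusted p of 0.05 or less). Calls made up 0.190% of all entries at 3 days, 2.86% of them at 11 days, and at 3 weeks 0.612%. At unadjusted p of 0.05 or less, 0, 6 and 3 of the entries passed. Of all tested entries 1443 of 22078 passed it at 3 days, 4281 of 21567 at 11 days and 2158 of 21565 at 3 weeks. The design found differences elsewhere in the same libraries, among them retinal ganglion cell markers, of which 12 of 27 tested entries rose and 4 fell at 11 days.

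RPE65-1 varied within both eyes at 3 and 11 days. It had 1178, 725 and 1174 FPKM in ONC eyes and 820, 929 and 1476 FPKM in contralateral eyes at 3 days. At 11 days it had 1108, 667 and 1206 FPKM in ONC eyes and 1048, 1232 and 1173 FPKM in contralateral eyes. At 3 weeks it had 919, 820 and 894 FPKM in ONC eyes and 977, 909 and 919 FPKM in contralateral eyes. The groups overlapped at each time, and the log2 fold changes were -0.06 ± 0.31, -0.25 ± 0.25 and -0.09 ± 0.11 (SE, n = 3 each, limma adjusted p = 0.98, 0.61 and 0.84).

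At 11 days all 25 tested entries had a negative log2 fold change in ONC against contralateral eyes, with a median of -0.23, where the median of all tested entries was -0.05. Of all tested entries 57.4% were lower. RDH10-2 had the largest difference, with 128, 57.9 and 162 FPKM in ONC eyes against 171, 221 and 229 FPKM in contralateral eyes, a log2 fold change of -0.94 ± 0.34 that did not pass (adjusted p = 0.18). The ONC replicate without the letter B had the lowest of these 6 values. Between the 2 ONC and the 3 contralateral libraries that carry the letter at 11 days, 18 of 26 entries were lower on the ONC side with a median of -0.08, and in 4 entries both ONC libraries lay below all the contralateral ones. The shares of all entries among these libraries were not counted. Photoreceptor markers were shifted too, with 92% of 62 tested entries lower and a median of -0.25, and 82% of the 39 other pigment epithelium entries were lower with a median of -0.20. The part of the letter and of these shifts in the members' values was not tested.

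At 3 days 18 of 26 entries had a negative log2 fold change, with a median of -0.06 where that of all entries was -0.03. Of all tested entries 55.6% were lower, and of photoreceptor markers 53 of 62, with a median of -0.13. Among the members 1 had groups that did not overlap. It was RBP3, with 1119, 1155 and 1279 FPKM in ONC eyes against 1355, 1411 and 1708 FPKM in contralateral eyes (log2 fold change -0.33 ± 0.20, adjusted p = 0.88). Compared between libraries with the same letter, 20 of 26 entries were lower in ONC eyes among those with B and 20 of 26 among those without, with medians of -0.26 and -0.21. With B the contralateral side was replicate 3 alone, and without it the ONC side was replicate 2 alone. Contralateral replicate 3 had the highest sum of the 26 entries among eye libraries (12709 FPKM), ONC replicate 2 the lowest (7413 FPKM). The same shares over all entries were not counted. At 3 weeks 19 of 25 entries were negative with a median of -0.07, where 52.9% of all entries were lower and their median was -0.01. Of photoreceptor markers 59 of 62 were lower, with a median of -0.19. Among the members RDH8-5 had the smallest p, at 14.4, 13.6 and 15.0 FPKM in ONC eyes against 12.2, 11.4 and 10.3 FPKM in contralateral eyes (log2 fold change 0.33 ± 0.09, adjusted p = 0.24). LRAT-2 had 14.0, 9.97 and 11.1 FPKM in ONC eyes against 14.3, 14.5 and 16.6 FPKM in contralateral eyes, with no overlap and a log2 fold change of -0.37 ± 0.13 (adjusted p = 0.38). No change of the ONC effect between times was called for any member, where 0.270% of all entries were called between 3 and 11 days and 0.0687% between 11 days and 3 weeks.

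The comparisons with naive eyes ask whether either eye of an operated frog differs from the eyes of a frog without surgery. They share the same 3 naive libraries, whose labels give no time, and no group had sham surgery. Surgery, handling and elapsed time or age therefore cannot be told apart in these comparisons. The paper left the naive group out of its own tests of differential expression. At 3 weeks both eyes were lower than naive eyes in LRAT-1, LRAT-2, RPE65-1, RGR-1 and RDH8-3. In ONC eyes 9 of 25 tested entries fell and none rose, where 8.98% of all entries were called. In contralateral eyes 6 of 25 fell and none rose, where 8.26% of all entries were called. The 5 entries called in both eyes were RPE65-1, LRAT-1, LRAT-2, RDH8-3 and RGR-1.

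Among the called entries the LRAT ones fell the most. LRAT-1 had 26.9, 19.1 and 22.5 FPKM in ONC eyes of 3 weeks, 27.4, 26.2 and 25.8 FPKM in contralateral eyes of 3 weeks and 45.5, 49.0 and 52.2 FPKM in naive eyes. LRAT-2 had 14.0, 9.97 and 11.1 FPKM in ONC eyes, 14.3, 14.5 and 16.6 FPKM in contralateral eyes and 35.9, 34.4 and 38.7 FPKM in naive eyes. Every operated frog's library of 3 weeks lay below every naive library for both entries. The log2 fold change of LRAT-1 was -1.09 ± 0.12 in ONC eyes (limma adjusted p = 0.0030) and -0.87 ± 0.07 in contralateral eyes (adjusted p = 0.0033). That of LRAT-2 was -1.61 ± 0.12 in ONC eyes (adjusted p = 0.00064) and -1.24 ± 0.08 in contralateral eyes (adjusted p = 0.0013). LRAT-3, the minor neighbour of LRAT-1, was not called, at 1.28, 1.55 and 0.437 FPKM in ONC eyes, 0.819, 1.39 and 1.14 FPKM in contralateral eyes and 0.950, 0.722 and 1.90 FPKM in naive eyes. The LRAT-1 and LRAT-2 calls in ONC eyes held under all 14 alternatives, and those in contralateral eyes under 13 of 14, lost where all 7 eye groups shared 1 estimate of the spread. In that shared fit none of the 6 contralateral calls held.

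RPE65-1 and RGR-1 fell less. RPE65-1, with the values of 3 weeks given above, had a log2 fold change against naive eyes of -0.49 ± 0.10 in ONC eyes (adjusted p = 0.027) and -0.40 ± 0.08 in contralateral eyes (adjusted p = 0.030). RGR-1 had 989, 771 and 783 FPKM in ONC eyes, 968, 967 and 944 FPKM in contralateral eyes and 1244, 1236 and 1277 FPKM in naive eyes. None of these libraries overlapped with the naive ones. Its log2 fold change was -0.57 ± 0.12 in ONC eyes (adjusted p = 0.031) and -0.38 ± 0.08 in contralateral eyes (adjusted p = 0.029). RDH8-3 had 104, 74.7 and 81.5 FPKM in ONC eyes, 98.4, 98.8 and 92.7 FPKM in contralateral eyes and 121, 129 and 140 FPKM in naive eyes, with log2 fold changes of -0.59 ± 0.12 (adjusted p = 0.028) and -0.42 ± 0.08 (adjusted p = 0.023). The calls of RPE65-1 and RGR-1 against naive eyes were lost whenever any 1 naive library was left out, and in ONC eyes also without ONC replicate 2 or 3. The RDH8-3 call held under 8 of 14 alternatives in ONC eyes and 9 of 14 in contralateral eyes, and was lost on both sides without naive replicate 2 or 3.

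Further entries were called on 1 side. RDH5-2 and RDH5-3, RDH8-2 and RDH10-2 fell in ONC eyes of 3 weeks, with log2 fold changes of -0.41 ± 0.09, -0.64 ± 0.11, -0.43 ± 0.08 and -0.62 ± 0.12. The same 4 entries had -0.23 ± 0.09, -0.36 ± 0.11, -0.28 ± 0.07 and -0.31 ± 0.13 in contralateral eyes, which did not pass. RDH8-5 was called in contralateral eyes alone, at -0.43 ± 0.11 (adjusted p = 0.048), and had -0.10 ± 0.10 in ONC eyes. These calls were fragile. In ONC eyes RDH5-2 held under 7 of 14 alternatives, RDH5-3 under 9, RDH8-2 under 8 and RDH10-2 under 9, and all were lost without naive replicate 2 or 3 or ONC replicate 2, while RDH8-5 held under 5 of 14 in contralateral eyes. The 9 calls in ONC eyes of 3 weeks became 3 in the shared fit, 4 with a replicate block and 2 to 11 leaving out 1 library. As given above, no entry differed between the 2 eyes at 3 weeks in the test of that difference.

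Counted by overlap, 16 of 25 entries lay in ONC eyes of 3 weeks below all naive libraries, where 16.6% of all entries did, and 14 of 25 lay in contralateral eyes below them, where 15.0% did. In 13 entries all 6 libraries of operated frogs lay below. The share of all entries for both eyes together was not counted, and both eyes were set against the same naive libraries. RDH8-1 was the entry that lay above in contralateral eyes, with 1451, 1509 and 1494 FPKM against 1231, 1270 and 1294 FPKM in naive eyes (log2 fold change 0.23 ± 0.08, adjusted p = 0.11). RLBP1-2, RDH5-1, TYR-1 and PMEL-2 overlapped with naive eyes on both sides and had log2 fold changes between -0.08 and 0.06.

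Other cell types moved beside these changes. Photoreceptor markers summed to 23658 to 26304 FPKM in ONC eyes of 3 weeks and 27569 to 29015 FPKM in contralateral eyes, against 29421 to 31652 FPKM in naive eyes, and 16 of 62 fell in ONC eyes while 2 fell and 4 rose in contralateral eyes. Lens markers summed to 157643 to 226165 FPKM in ONC eyes and 214577 to 228732 FPKM in contralateral eyes, against 250068 to 271486 FPKM in naive eyes. Both sums were lower than naive with no overlap, and their part in the result was not tested. The ratio of 2 entries within 1 library does not depend on how libraries were scaled. RPE65-1 over RLBP1-1 was 1.37, 1.39 and 1.32 in naive eyes and lay between 0.791 and 1.24 in all 18 libraries of operated frogs. LRAT-2 over LRAT-1 was 0.521, 0.522 and 0.494 in ONC eyes of 3 weeks and 0.522, 0.551 and 0.644 in contralateral eyes of 3 weeks, against 0.789, 0.703 and 0.742 in naive eyes. In these libraries the 2 entries did not fall by the same factor. The ratio also lay below naive eyes in ONC eyes of 3 days, at 0.688, 0.664 and 0.604. It lay above them in contralateral eyes of 11 days, at 0.818, 0.836 and 0.829. These pairs were chosen after values were seen and carry no test.

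**Figure D2:**
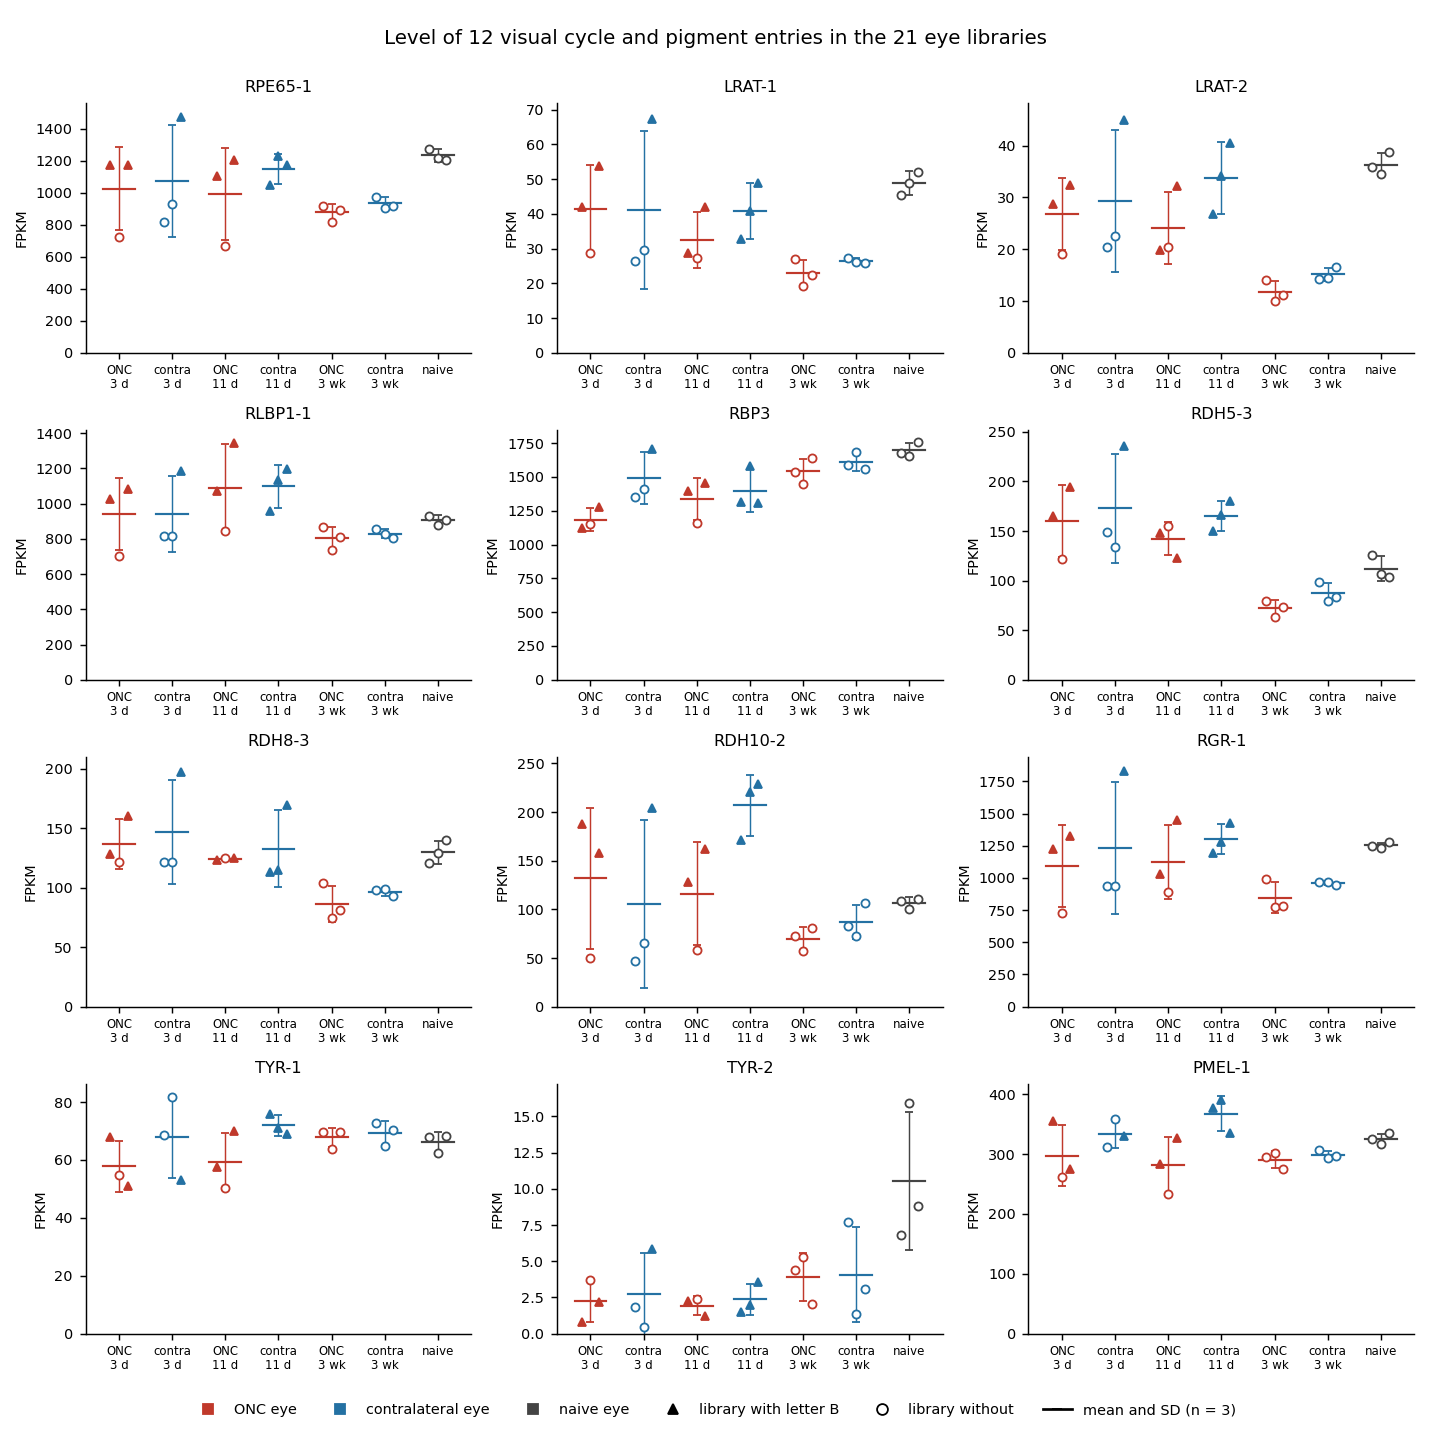
FPKM of 12 of the entries in each eye library, by group, with triangles for libraries that carry the letter B, circles for those that do not, and the mean with SD of the 3 libraries. At 3 weeks the LRAT-1 circles of operated frogs sit between 19.1 and 27.4 FPKM, below the naive ones at 45.5 to 52.2. In RPE65-1, RLBP1-1, RDH10-2 and RGR-1 all triangles sit above all circles of 3 and 11 days, and in the other entries shown they overlap.

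At 3 days against naive eyes, 2 of 26 entries fell in ONC eyes, where 6.39% of all entries were called, and none of 25 was called in contralateral eyes, where 0.102% were. At 11 days 3 of 25 fell in ONC eyes, where 20.0% of all entries were called. In contralateral eyes of 11 days 6 rose and 1 fell, where 9.18% were called.

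TYR-2 was the member that fell in several of these comparisons. It had 0.798, 3.73 and 2.21 FPKM in ONC eyes of 3 days, 2.24, 2.37 and 1.19 FPKM in ONC eyes of 11 days and 4.42, 5.28 and 2.03 FPKM in ONC eyes of 3 weeks. It had 1.85, 0.451 and 5.87 FPKM in contralateral eyes of 3 days, between 1.51 and 3.59 FPKM in those of 11 days and 7.72, 1.36 and 3.09 FPKM in those of 3 weeks. Naive eyes had 6.84, 15.9 and 8.82 FPKM. A total of 17 of 18 libraries of operated frogs lay below the lowest naive one, and the naive libraries were themselves spread widely. The log2 fold change in ONC eyes was -2.08 ± 0.45 at 3 days (adjusted p = 0.039), -2.14 ± 0.31 at 11 days (adjusted p = 0.0057) and -1.32 ± 0.36 at 3 weeks (adjusted p = 0.055). In contralateral eyes it was -2.10 ± 0.67 (adjusted p = 0.23), -1.92 ± 0.32 (adjusted p = 0.015) and -1.45 ± 0.50 (adjusted p = 0.10). TYR-1, the abundant entry of the same enzyme, did not follow, with differences from -0.20 to 0.12 in the same 6 comparisons.

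The other early falls were RDH8-5, LRAT-1 and LRAT-2. RDH8-5 had 8.61, 11.0 and 8.11 FPKM in ONC eyes of 3 days against 13.4, 15.9 and 17.2 FPKM in naive eyes (log2 fold change -0.72 ± 0.15, adjusted p = 0.033). LRAT-1 had 28.6, 27.3 and 41.9 FPKM in ONC eyes of 11 days against 45.5, 49.0 and 52.2 FPKM in naive eyes (-0.60 ± 0.16, adjusted p = 0.035), and LRAT-2 was called with it (-0.62 ± 0.18, adjusted p = 0.045). The RDH8-5 and TYR-2 calls of 3 days, and the LRAT-1 and LRAT-2 calls of 11 days, were lost when any 1 naive library was left out, while the TYR-2 call of 11 days held under all 15 alternatives. TYR-3 had a mean of 0.657 ± 0.548 FPKM in ONC eyes of 3 days against 0.0690 ± 0.0236 FPKM in naive eyes and was not called (0.90 ± 0.37, adjusted p = 0.17). Without the ONC replicate of 11 days that stood apart, 5 entries were called at that time in place of 3, and LRAT-1 and LRAT-2 were not among them.

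The rises in contralateral eyes of 11 days were in RPE65-2, RDH5-1, RDH5-2, RDH5-3, RDH10-2 and RGR-2. RPE65-2 ran from 1.13 to 1.90 FPKM there. Its call held under 8 of 14 alternatives, and that of RGR-2 under 5. RDH10-2 had 171, 221 and 229 FPKM against 109, 100 and 111 FPKM in naive eyes, with a log2 fold change of 0.94 ± 0.12 (adjusted p = 0.0060). RDH5-1 had 521, 538 and 508 FPKM against 368, 347 and 375 FPKM (0.52 ± 0.09, adjusted p = 0.018), and RDH5-3 had 150, 166 and 180 FPKM against 126, 107 and 104 FPKM (0.56 ± 0.11, adjusted p = 0.021). With 1 naive library left out 2 or 3 entries were called in place of 7, and without contralateral replicate 1 there were 4. None of these groups overlapped, and 13 of 25 entries lay above all naive libraries, where 16.4% of all entries did. All 3 contralateral libraries of 11 days carry the letter B and no naive library does, so the group and the letter cannot be told apart here. Cornea and skin markers fell in the same comparison in 16 of 29 tested entries, summing to 1042 to 1186 FPKM against 1607 to 1908 FPKM in naive eyes, and red blood cell markers summed to 732 to 1231 FPKM against 2509 to 3357 FPKM. Photoreceptor markers rose in 10 of 62 and fell in none, and lens markers summed to 318571 to 546128 FPKM against 250068 to 271486 FPKM in naive eyes. The part of these sums in the members' rises was not tested.

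**Figure D3:**
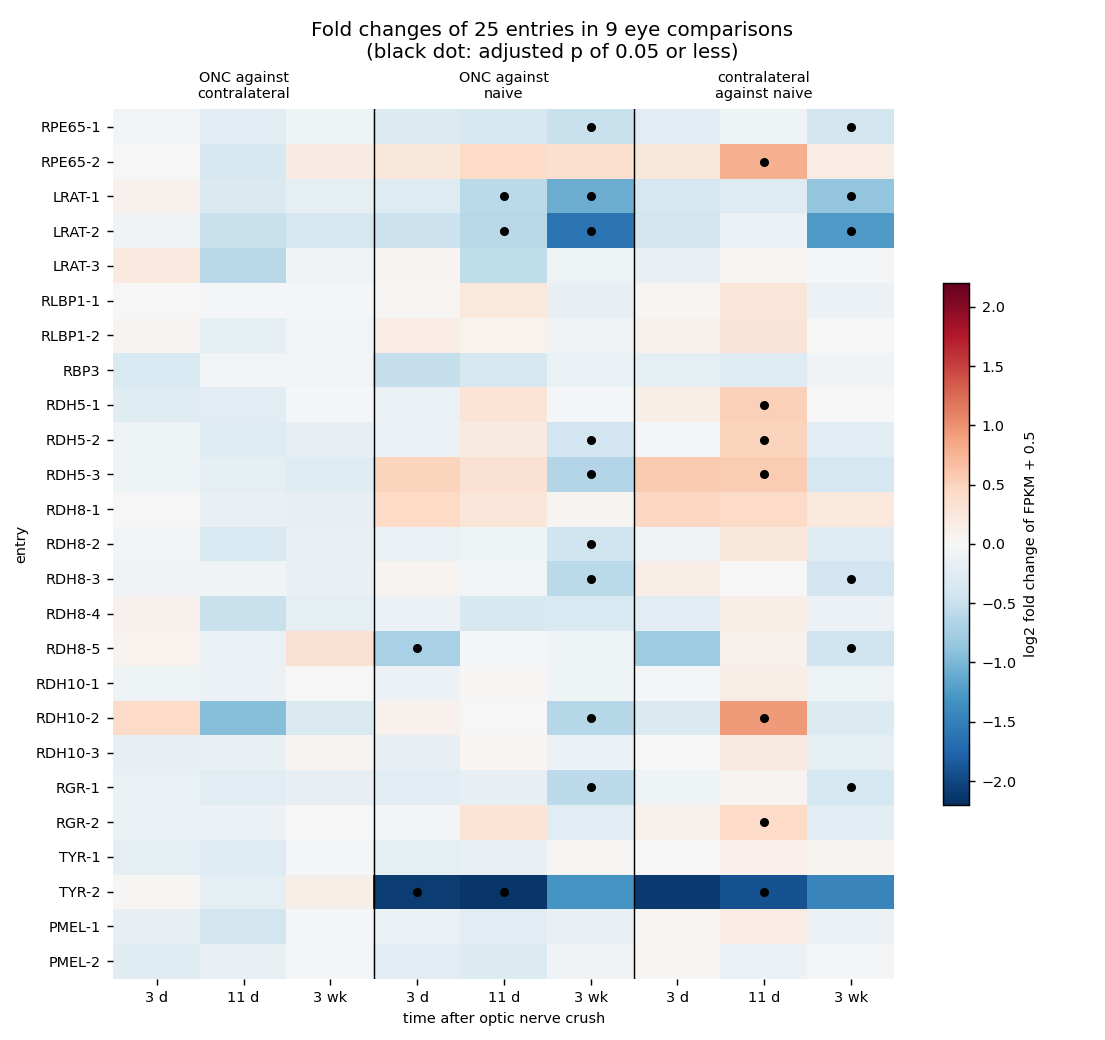
Log2 fold change of FPKM + 0.5 for the 25 entries tested in all 9 eye comparisons (colour, red for higher and blue for lower in the group named first), with a black dot where the limma adjusted p was 0.05 or less. The 3 columns of ONC against contralateral eyes hold no dot, the columns of 3 weeks against naive eyes hold 9 dots for ONC and 6 for contralateral eyes, all lower, and the contralateral column of 11 days holds 6 higher and 1 lower.

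The letter itself went with the members' levels. In the 12 libraries of ONC and contralateral eyes of 3 and 11 days, with group and letter as terms, 8 of 26 entries were higher in libraries with B and none was lower, where 5.49% of all entries were called in either direction. The fit was added after the members' own values had been seen to be higher with the letter. Its p-values, and the counts by letter that follow, describe these libraries and support nothing. The entries were RPE65-1 (log2 fold change 0.75 ± 0.12, SE), RPE65-2 (0.93 ± 0.19), LRAT-1 (0.77 ± 0.19), RLBP1-1 (0.54 ± 0.13), RDH5-2 (0.75 ± 0.12), RDH10-2 (1.65 ± 0.16), RGR-1 (0.74 ± 0.16) and RGR-2 (0.85 ± 0.13), with adjusted p from 0.0014 to 0.043. In all, 24 of 26 entries were positive, with a median of 0.37 where that of all entries was -0.01. The entries of the melanin genes with more than 50 FPKM were not called, at -0.02 ± 0.15 for TYR-1, 0.21 ± 0.13 for PMEL-1 and -0.23 ± 0.12 for PMEL-2, and their difference from the other members was not tested.

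The separation was widest in RDH10-2, which had 128 to 229 FPKM in the 8 libraries with B and 46.6 to 65.7 FPKM in the 4 without it at the same times. A total of 8 entries lay higher in every B library than in every library without it, where 2.52% of all entries did. Other lists moved with the letter as well. Lens markers were higher with B in 48 of 59 tested entries, with a median of 0.38, where 2 were called higher and 3 lower. Skeletal muscle markers were higher in 21 of 26, with a median of 0.31, where 2 were called higher. Cornea and skin markers were lower in 23 of 30, with a median of -0.34 and none called. Other pigment epithelium genes were called higher with B in 8 of 39 tested entries and lower in 1, with a median of 0.19, and melanosome genes higher in 6 of 51, with a median of 0.08. Macrophage and leucocyte markers were called higher in 11 of 29 and lower in 1, and photoreceptor markers higher in 9 of 62. Retinal ganglion cell markers had negative values in 22 of 27, of which 3 were called. The FPKM sum had a median of 951670 in libraries with B, against 720068 in the 4 without it at the same times. The 26 entries took a median of 1.10% of that sum with B and 1.12% without. The part of these lists and sums in the members' values was not tested. Within libraries, RDH10-2 over RDH10-1 was 0.997 to 1.69 with B and 0.453 to 0.979 in all 13 eye libraries without it, and PMEL-2 over PMEL-1 was 0.636 to 0.717 with B and 0.769 to 0.965 without.

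The 10 libraries of operated frogs without the letter mix both eyes and all 3 times. The letter was singled out after the members' own values had been seen to be higher with it, so leaving out its libraries favours low values, and what follows describes these libraries and supports nothing. In them RPE65-1 ran from 667 to 977 FPKM against 1205 to 1277 FPKM in naive eyes. LRAT-1 ran from 19.1 to 29.6 FPKM against 45.5 to 52.2 FPKM, LRAT-2 from 9.97 to 22.6 FPKM against 34.4 to 38.7 FPKM, and RGR-1 from 731 to 989 FPKM against 1236 to 1277 FPKM. A total of 7 of 25 entries, these 4 with RLBP1-1, RDH5-2 and RGR-2, lay below all naive libraries, where 3.23% of all entries did. None lay above them, where 2.84% of all entries did. With the libraries of 3 days that carry B left out, 4 members were called in contralateral eyes against naive eyes in place of 0, while calls over all entries numbered 1680 in place of 22. In ONC eyes of 3 days this leaves a single library, so no count of calls is given.

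**Figure D4:**
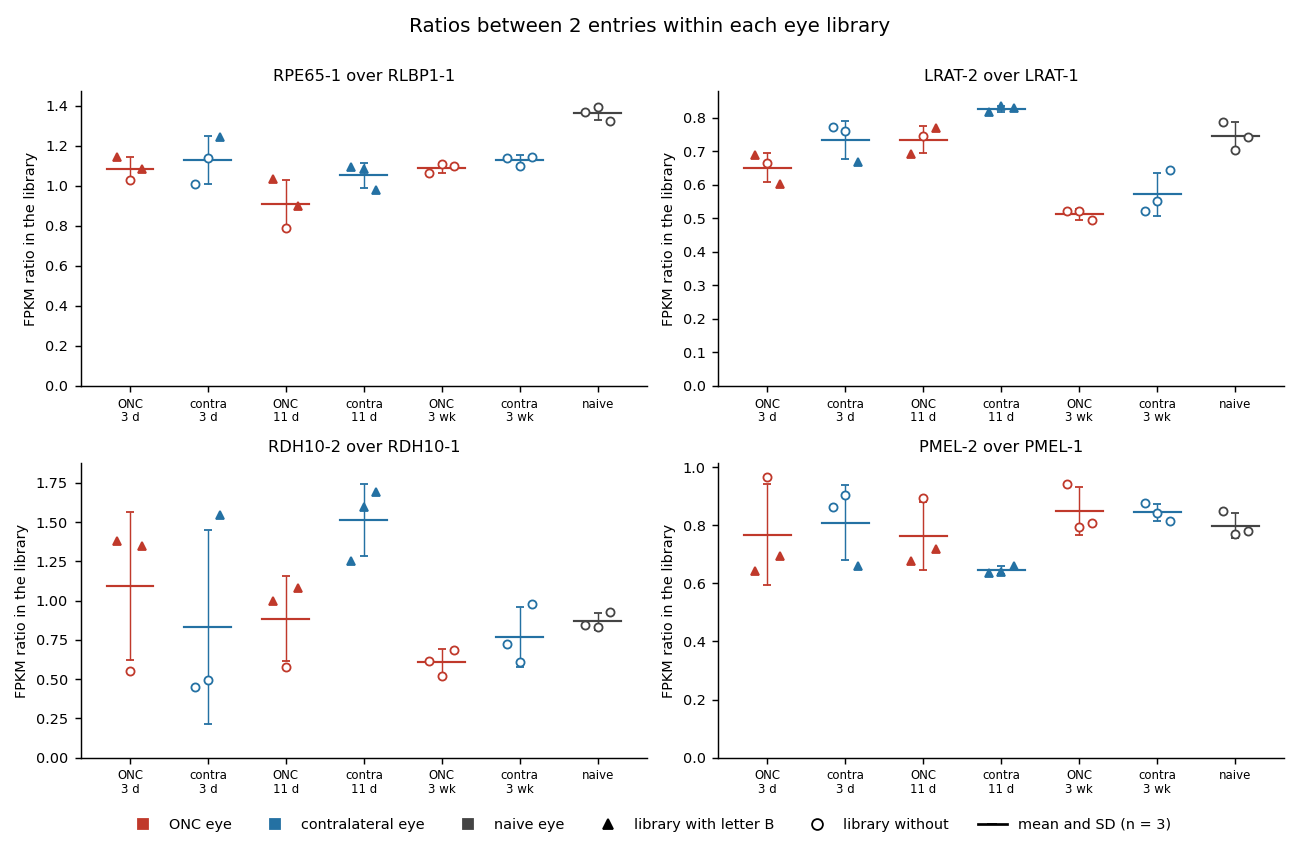
Ratio of the FPKM of 2 entries within each eye library, by group, with triangles for libraries that carry the letter B and circles for those that do not, and the mean with SD of the 3 libraries. RPE65-1 over RLBP1-1 is above 1.3 in the 3 naive libraries alone, and LRAT-2 over LRAT-1 has its lowest group means at 3 weeks. In the RDH10 and PMEL panels all triangles lie on 1 side of all circles.

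Other genes of retinoid handling gave few calls between the eyes, and their difference from the members or from all entries was not tested. Of 69 entries of the remaining retinoid and visual cycle list, 62 were tested between ONC and contralateral eyes at 11 days, 3 rose and none fell, with a median of -0.15, where 2.86% of all entries were called. Transthyretin (TTR), a carrier of thyroid hormone and of retinol-binding protein, rose most, with one entry at 92.1, 55.2 and 124 FPKM in ONC eyes against 11.9, 10.5 and 11.7 FPKM in contralateral eyes at 11 days (log2 fold change 2.86 ± 0.25, adjusted p = 0.00056). At 3 weeks 1 of 63 tested entries rose and none fell, where 0.612% of all entries were called. It was a second TTR entry, with 19.6, 21.1 and 29.1 FPKM in ONC eyes against 8.60, 9.85 and 10.6 FPKM in contralateral eyes (1.21 ± 0.15, adjusted p = 0.011). These 2 entries did not overlap between the eyes. The first of them was also lower in contralateral eyes of 11 days than in naive eyes, at means of 11.4 and 24.1 FPKM (-1.04 ± 0.14, adjusted p = 0.0071).

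Against naive eyes at 3 weeks the same list had 4 rises and 10 falls of 63 tested in ONC eyes and 1 rise and 5 falls in contralateral eyes, where 8.98% and 8.26% of all entries were called in either direction. DHRS3, a retinal reductase, fell most in both, at 27.8, 26.5 and 29.9 FPKM in ONC eyes and 31.4, 29.2 and 33.0 FPKM in contralateral eyes, against 49.5, 49.4 and 60.3 FPKM in naive eyes, with log2 fold changes of -0.90 ± 0.10 (adjusted p = 0.0025) and -0.75 ± 0.10 (adjusted p = 0.013). Of the melanosome list 2 rose and 3 fell of 50 in ONC eyes, and none rose and 2 fell in contralateral eyes. Of the other pigment epithelium genes none rose and 3 fell of 39 in ONC eyes, and 1 rose and 1 fell in contralateral eyes. The melanosome and pigment epithelium counts were near or below the shares over all entries.

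Among the other pigment epithelium genes, TIMP3, an inhibitor of matrix proteases, was higher in ONC than in contralateral eyes at both later times. It was the 1 entry of 39 called at each time, where 2.86% of all entries were called at 11 days and 0.612% at 3 weeks. Most of the list went the other way, with 32 of 39 lower in ONC eyes at 11 days and 26 of 39 at 3 weeks. It had 105, 60.7 and 122 FPKM in ONC eyes against 41.3, 32.3 and 41.4 FPKM in contralateral eyes at 11 days (log2 fold change 1.26 ± 0.24, adjusted p = 0.031). At 3 weeks it had 47.4, 55.3 and 38.6 FPKM in ONC eyes against 23.5, 26.3 and 23.6 FPKM in contralateral eyes (0.92 ± 0.13, adjusted p = 0.018). TIMP3 was also lower in contralateral eyes of 3 weeks than in naive eyes, at means of 24.5 and 35.7 FPKM (-0.52 ± 0.12, adjusted p = 0.040). SERPINF1, the secreted factor PEDF, fell most at 3 days against naive eyes, with 27.6, 18.8 and 24.2 FPKM in ONC eyes against 48.7, 45.8 and 46.3 FPKM in naive eyes (-0.998 ± 0.139, adjusted p = 0.011). In that comparison 2 of 39 entries of the list fell and 1 rose, where 6.39% of all entries were called. Of the melanosome genes EDNRB, an endothelin receptor of pigment cells, was the 1 entry called between the eyes, with 33.0, 35.5 and 33.4 FPKM in ONC eyes against 23.2, 21.4 and 20.2 FPKM in contralateral eyes at 11 days (0.64 ± 0.10, adjusted p = 0.011). It was 1 of 50 tested, where 2.86% of all entries were called, and 36 of the 50 were lower in ONC eyes.

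The genes whose level most resembled that of a member over the 21 eye libraries were found by Pearson's r of log2(FPKM + 0.5) among 20080 entries, as a description. RPE65-1 was most like INPP5K (r = 0.95), KIAA1161 (0.91), RGR-1 (0.90), SLC41A1 (0.90) and ALDH3A2 (0.88). RLBP1-1 was most like RGR-2 (0.96), RDH5-2 (0.94), GNAT1 (0.92), FAM213A (0.91) and TMCO1 (0.91). RBP3 was most like ABCA4 (0.87), NOMO1 (0.86), CRISPLD1 (0.85), MATN4 (0.84) and GUCY2F (0.84). TYR-1 was most like ZNF3 (0.87), GRINA (0.86), CDIP1 (0.86), LPCAT4 (0.85) and LOXL1 (0.84), none of them a member. The libraries share the letter, the lens share and the scaling of FPKM, which enter every such r.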

How the data were processed

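Per the labels and the methods, total RNA of 6 pooled eyes or 5 pooled hindbrains was depleted of ribosomal RNA and made into stranded libraries. Hindbrains, unlike eyes, were held in RNAlater. The authors aligned reads with Bowtie2 2.2.9 and TopHat 2.1.1 to a Xenbase assembly and deposited FPKM per gene model from Cufflinks. Which scaling between libraries was used is not stated, and count models could not be run.

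Here log2(FPKM + 0.5) was tested with limma 3.58.1 (R 4.3.3), with a variance trend, on the libraries of the 2 groups compared. An entry entered the test if its mean reached 0.45 FPKM in either group. The Benjamini-Hochberg adjustment ran over every entry tested, and a call needs an adjusted p of 0.05 or less. A fold change on this scale understates that of low entries. Changes of the ONC effect over time were interaction terms. The fits were tested on simulated data. Alternatives were other scalings, pseudocounts, filters and designs, and leaving out each library. Those that use the letter B, the 10 libraries without it and the ratios were chosen after seeing the data.

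The members and lists were chosen with earlier results of these data known. All member entries are named. From each list, the called entry with the largest rise and fall per comparison, at 1 FPKM or more and without overlap, could be named, and some are left out. The retinal ganglion cell list and other marker lists are given as counts. Same-numbered libraries deviated together at every number for contralateral against naive eyes at 3 weeks alone (r = 0.17, 0.11 and 0.19), although these are different animals. For ONC against contralateral eyes r was -0.21, 0.57 and 0.69 at 3 days, so 2 numbers were higher and 1 was negative. It was 0.29, -0.091 and 0.17 at 11 days and 0.17, 0.22 and -0.026 at 3 weeks. At 3 and at 11 days the negative value belonged to the number whose ONC and contralateral libraries differ in the letter B. The part of the letter in these r was not tested. The main tests between these eyes were unpaired, with the replicate block as an alternative. No sequences are shown. Hindbrain libraries of tadpoles, and of frogs with a transected spinal cord, enter no test.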

Additional observations from a re-analysis of the deposited data

Results flagged for a closer look

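Contralateral against naive eyes gave opposite differences at 2 times, with every library of one time above and every library of the other below all naive libraries, for 7 entries. Taken singly, 16.4% of all entries lay above naive eyes at 11 days and 15.0% below them at 3 weeks. The share of all entries with both was not counted, and the times share the same naive libraries. The difference between the times was not tested. RDH5-3 had a log2 fold change of 0.58 at 3 days and 0.56 at 11 days, against -0.36 at 3 weeks. The values at 11 days were 0.17 for PMEL-1, 0.15 for RDH10-1, 0.49 for RDH5-2, 0.24 for RDH8-2, 0.42 for RGR-2 and 0.27 for RLBP1-1, against -0.12, -0.11, -0.23, -0.28, -0.25 and -0.13 at 3 weeks in the same order. All contralateral libraries of 11 days carry the letter B and none of 3 weeks does.

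Hindbrains of tadpoles and juvenile frogs whose spinal cord had been transected enter no comparison above. The cord was cut at mid-thoracic level, so these hindbrains did not hold the injury site. Some members that are low in them lay above their unoperated controls in every library, at 2 times the mean or more. The cases below were picked by this rule, and other members and times are not among them. The share of all entries that met it was not counted. At 1 week in tadpoles the means were 1.70 FPKM for RLBP1-1 against 0.482 in controls, 1.63 for RDH5-1 against 0.618, 2.43 for RDH8-1 against 0.811 and 1.66 for RDH8-3 against 0.698. At 3 days in frogs they were 2.07 FPKM for LRAT-3 against 0.694, 1.45 for RLBP1-2 against 0.449, 2.07 for RBP3 against 0.481 and 1.97 for RDH5-1 against 0.784. At 3 weeks in frogs RDH5-1 had 1.78 FPKM against 0.784. All 3 frog control libraries carry the letter R and no injured frog library does, so injury and letter cannot be told apart there. Lens genes, which mark eye tissue, moved with these values in part. They took 0.0112, 0.120 and 0.121% of the FPKM sum in injured tadpoles of 1 week, against 0.0109, 0.0123 and 0.0145% in their controls. In frogs they took 0.0855, 0.143 and 0.120% at 3 days and 0.202, 0.0297 and 0.0417% at 3 weeks after injury, against 0.0242, 0.101 and 0.0209% in controls. Their part in the members' values was not tested. These are 3 libraries a group with no test.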

How the results depend on the processing

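The direction of the 51 fold changes called between groups was the same in all 683 values from alternatives, and 133 of these no longer passed. The counts below are of members called. Between ONC and contralateral eyes, and for the change of the ONC effect over time, the count was 0 under every alternative. Contralateral against naive eyes at 3 days gave 0 and, with the letter as a covariate, 4, also 4 without the B libraries, and 0 to 4 leaving out 1 library. At 11 days it gave 7, and 1 with all eye groups in 1 fit, and 2 to 7 leaving out 1 library. At 3 weeks it gave 6, and 0 with all eye groups in 1 fit, and 2 to 4 leaving out 1 library. ONC against naive eyes at 3 days gave 2, and 0 to 7 leaving out 1 library. At 11 days it gave 3, and 9 with scaling on entries other than lens genes, 1 with all eye groups in 1 fit, and 1 to 5 leaving out 1 library. No naive library carries B. At 3 and at 11 days the letter as a covariate therefore sets 1 ONC library against naive eyes, so its counts are not given. At 3 weeks it gave 9, and 3 with all eye groups in 1 fit, and 2 to 11 leaving out 1 library. Naive eye against hindbrain gave 24, and 10 where 0.45 FPKM was needed in every library, a filter that removes entries scarce in hindbrain, and 24 leaving out any library. Other causes were not tested. With a replicate block the counts became 1 for ONC against naive eyes at 3 days and 4 at 3 weeks, 6 for contralateral against naive eyes at 3 weeks where the numbers paired the libraries, and 25 for naive eye against hindbrain.

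Scaling without lens genes moved the median log2 fold change of all entries to -0.29 for ONC against naive eyes at 11 days, -0.15 for ONC against contralateral and for contralateral against naive eyes at 11 days, 0.11 for contralateral against naive eyes at 3 weeks and -0.32 for naive eye against hindbrain, and the changes reported under it hold relative to those shifts. Over all entries, calls between ONC and contralateral eyes at 3 days were 42, and 149 with the block, 488 with all eye groups in 1 fit and 126 with the letter as a covariate. At 11 days they were 616, and 1251 in the shared fit. Contralateral against naive eyes at 3 days gave 22, and 37 scaled without lens genes, 0 with the block, 861 in the shared fit, 1688 with the letter and 1680 without B libraries. At 11 days it gave 1985, and 946 in the shared fit. At 3 weeks it gave 1781, and 2866 scaled without lens genes and 32 in the shared fit. ONC against naive eyes at 3 days gave 1412, and 517 with the block and 2444 in the shared fit. At 11 days it gave 4309, and 7984 scaled without lens genes. At 3 weeks it gave 1939, and 320 with the block and 496 in the shared fit. The change of the ONC effect gave 60 between 3 and 11 days, and 197 in the shared fit, and 15 between 11 days and 3 weeks, and 8 with no filter. The letter could not be fitted as a covariate at 3 weeks, for contralateral eyes of 11 days or for hindbrain. With 3 libraries a group and no read counts, small differences in entries near or below 1 FPKM may go undetected. RPE65-2, LRAT-3 and TYR-3 are among these entries. RPE65-2 was still called in naive eye against hindbrain, in contralateral eyes of 11 days and with the letter B.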
